A study of Mus musculus with 9 samples.

Results

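MycT58A-carrying WNT-medulloblastoma tumours of the mouse were compared with normal cerebellum over every gene symbol of the count table. The comparison uses 6 of the 9 RNA-seq libraries of the study, 3 of tumours and 3 of control tissue. The controls were labelled as cerebellum of CD1-nude mice, a strain that lacks a thymus. The tumours were GFP-positive regions dissected from growths in the brains of CD1-nude hosts. Their implanted cells came from mice with the alleles Ctnnb1Ex3flx/flx and Trp53flx/flx, together with Pik3caE545K +/flx and the recombinase Blbp-Cre, and carried MycT58A in addition. Blbp-Cre is driven by the promoter of Fabp7, a gene of radial glia and other neural progenitors. A further 3 libraries, labelled EV, came from tumours of the same implanted genotype without MycT58A. Tumour and control therefore differed in genotype, in cell origin and in implantation together, and the effects of these cannot be told apart.

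WNT signalling works through beta-catenin, the product of Ctnnb1. Without a WNT signal a destruction complex that includes AXIN2 marks beta-catenin for degradation, and loss of the segment encoded by the floxed exon removes the marked residues. Stable beta-catenin enters the nucleus and binds TCF and LEF factors at their target genes, many of which encode inhibitors of the pathway. WNT medulloblastoma is a childhood tumour of the hindbrain that carries activating CTNNB1 mutations. MYC is a transcription factor that binds the E-box with its partner MAX and is known for raising ribosome, nucleotide and cell cycle genes. The MycT58A form lacks a phosphorylation site that targets the protein for degradation.

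The control libraries held 21154342 to 24780263 counts and the tumour libraries 24423717 to 30410089. The growth text of the labels speaks of cortex for the control tissue, whereas the source and tissue labels say cerebellum. All 3 control libraries held cerebellar genes at high levels, such as Gabra6 at 512 to 871 CPM (counts normalised to library size, scaled by TMM over the 6 libraries). The cortical genes were near 0 there, with Emx1 at 0 and Tbr1 at no more than 0.915 CPM. Control replicate 3 held traces of tumour-high genes. Its summed level of 25 mitosis genes was 2.24% of the tumour mean, against 0.610% and 0.540% in control replicates 1 and 2. The Y-linked Ddx3y stood in it at 0.824 CPM, or 1.28% of the tumour mean, with no count in the other controls. The tumours held Ddx3y at 69.0, 71.4 and 52.9 CPM and the X-inactivation RNA Xist at 1.48, 0.174 and 0.918 CPM, against 23.6, 59.0 and 25.9 CPM of Xist in the controls. The groups thus differed in the sex of most of their cells. Folds that rest on control replicate 3 are given below with and without it, and the part of these traces in other results was not tested.

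Most of the transcriptome differed between tumour and cerebellum. Of 14758 genes tested with edgeR's quasi-likelihood test, 11883 (80.5%) passed a Benjamini-Hochberg adjusted p of 0.05, 5914 (40.1%) with higher and 5969 (40.4%) with lower levels in the tumours. At over 4-fold, 2117 genes (14.3%) were higher and 3148 (21.3%) lower, and at over 16-fold 623 were higher and 1539 lower. The large falls thus outnumbered the large rises, while the median log2 fold change over all genes was -0.02. TMM scaling takes most genes as unchanged and centres fold changes near 0, so this median and the even split are not findings. Levels are relative within a library, and a shift in total RNA could not be seen. Counts of list members below are to be read against these shares. The 3 tumours resembled each other closely, with a median SD of log2 CPM per gene of 0.177, against 0.158 among the controls. Whether the tumours came from separate cell preparations is not stated, so p-values measure only the spread between these samples, which may be technical in part.

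The gene carried by the vector was the clearest of the engineered genes. Myc (chr15:61985391-61990374) measured 0.921, 1.56 and 31.4 CPM in the controls and 902, 844 and 712 CPM in the tumours. Its log2 fold change was 6.19 ± 1.33 (SE, n = 3 and 3), or 72.8-fold higher (adjusted p = 0.00318). The tumours lay far above every control, and control replicate 3 was the highest control. Without control replicate 3 the log2 fold change was 9.42 (adjusted p = 3.83e-06). Counts per gene symbol do not separate MycT58A from the host's own Myc transcripts.

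Ctnnb1 (chr9:120929216-120960507) measured 731, 708 and 811 CPM in the controls and 1022, 1060.2 and 969 CPM in the tumours, a log2 fold change of 0.44 ± 0.11 (adjusted p = 0.00634). The groups did not overlap, yet the change in Ctnnb1 RNA was small beside those of its target genes. Trp53 (chr11:69580359-69591873), the gene of the p53 tumour suppressor, measured 13.3, 13.2 and 17.1 CPM against 10.1, 10.3 and 6.76 CPM in the tumours. It fell by 0.68 ± 0.21 on the log2 scale (adjusted p = 0.0189), and did not pass without control replicate 3 (adjusted p = 0.0923). Pik3ca, the catalytic subunit of PI3-kinase, fell from 127, 129.5 and 131 CPM to 66.7, 75.8 and 98.8 CPM (log2 fold change -0.68 ± 0.15, adjusted p = 0.00337). Gene counts do not resolve the floxed exons of Ctnnb1 and Trp53 or the mutated codon of Pik3ca. Fabp7, whose promoter drives the Cre, measured 102, 116 and 145 CPM in the controls and 17.1, 1.01 and 15.8 CPM in the tumours (log2 fold change -3.42 ± 0.79, adjusted p = 0.00445). All tumours were below all controls, and tumour replicate 2 was lowest.

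All 20 WNT feedback and target genes on the list rose in the tumours, 17 of them by over 4-fold, with a median log2 fold change of 4.50. Secreted and membrane inhibitors of the pathway were among the strongest. Wif1, which binds WNT ligands, measured 6.29, 11.0 and 12.7 CPM in the controls and 2000.2, 2582 and 1577 CPM in the tumours, 206-fold higher (log2 fold change 7.68 ± 0.37, adjusted p = 1.35e-06). Nkd1, an inhibitor of Dishevelled, rose from 11.8, 15.3 and 14.6 CPM to 1769, 1898 and 1410.4 CPM, 121-fold (adjusted p = 4.69e-07). Notum, an enzyme that inactivates WNT proteins by removing their lipid, rose from 1.2, 2.04 and 1.28 CPM to 199, 282 and 154 CPM, 140.1-fold (adjusted p = 1.2e-06). For each of these 3 inhibitors the lowest tumour was many times the highest control.

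Components of the intracellular pathway rose as well. Axin2 (chr11:108920349-108950783), the scaffold of the destruction complex, measured 8.85, 14.3 and 9.52 CPM in the controls and 212, 184 and 224 CPM in the tumours, 19-fold higher (log2 fold change 4.25 ± 0.21, adjusted p = 1.45e-06). The DNA-binding partners of beta-catenin rose, Lef1 from 3.89, 4.74 and 5.03 CPM to 143, 105 and 129 CPM (27.6-fold), and Tcf7 from 2.36, 2.48 and 2.01 CPM to 312, 277 and 246 CPM (121-fold). Fzd10, a WNT receptor, rose from 1.6, 2.26 and 1.46 CPM to 272, 265 and 228 CPM (143-fold). Receptors and partners thus moved the same way as the inhibitors. The smallest changes on the list included Lgr5, the receptor of R-spondins, at 8.33, 9.52 and 6.95 CPM against 17.5, 26.5 and 18.6 CPM (2.52-fold, adjusted p = 0.000625). Sp5, a transcription factor, measured 3.93, 11.0 and 34.5 CPM in the controls and 191, 148 and 146 CPM in the tumours (log2 fold change 3.30 ± 0.68, adjusted p = 0.00264). Control replicate 3 was again the highest control, and without it the log2 fold change of Sp5 was 4.49.

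**Figure D1:**
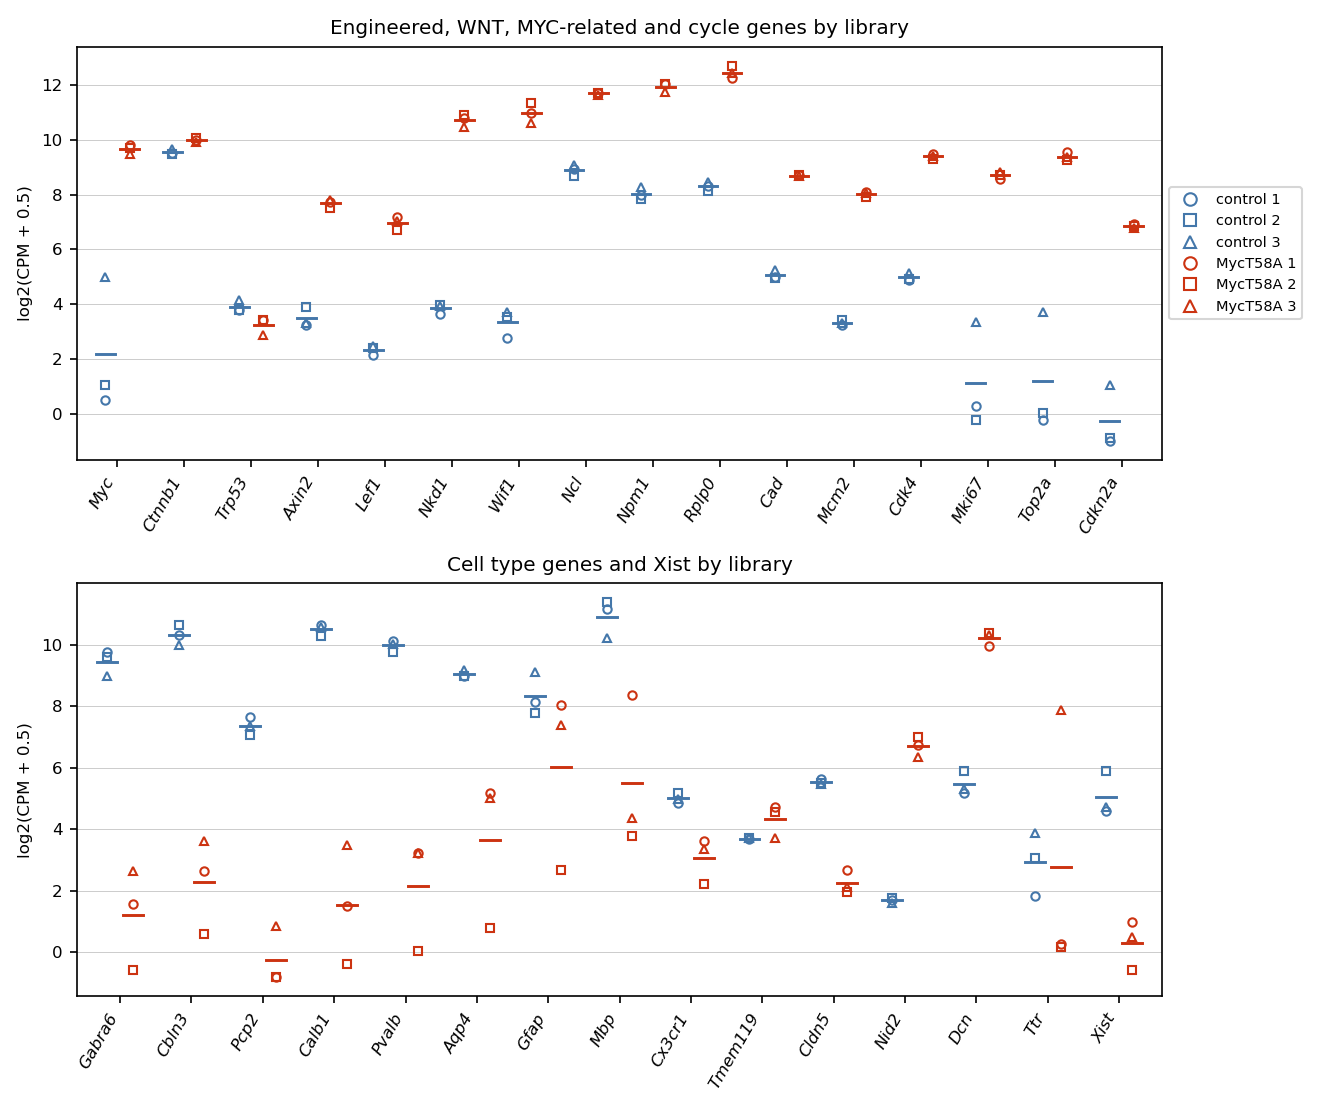
Level of selected genes in each of the 6 libraries (log2 of CPM plus 0.5, control in blue and MycT58A in red, with circle, square and triangle for replicates 1, 2 and 3 and a short bar for the group mean). Wif1 and Nkd1 lie far above the controls in all 3 tumours, neuron genes such as Gabra6 in the lower panel lie far below, and control replicate 3 is the highest control for Myc and Mki67.

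Promoter sequences of 4 genes that rose are shown because they hold the letters of the E-box, CACGTG, or of a TCF motif, ATCAAAG. Each window is 300 bases around the start of the gene from RefSeq (GRCm38.p6), 5′ to 3′ on the gene's strand, with the motif letters in capitals on either strand. Cdk4 encodes the kinase of the G1 phase, Ldha a subunit of lactate dehydrogenase, Nop2 a methyltransferase of ribosomal RNA and Sp5 the WNT target described above.
Cdk4 (chr10:127063285-127063584, + strand): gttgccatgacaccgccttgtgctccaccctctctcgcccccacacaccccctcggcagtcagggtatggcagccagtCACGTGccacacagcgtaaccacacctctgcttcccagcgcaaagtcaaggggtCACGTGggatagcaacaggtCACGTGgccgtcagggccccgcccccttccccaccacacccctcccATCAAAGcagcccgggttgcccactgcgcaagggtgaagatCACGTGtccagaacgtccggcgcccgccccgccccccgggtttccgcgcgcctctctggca
Ldha (chr7:46845554-46845853, + strand): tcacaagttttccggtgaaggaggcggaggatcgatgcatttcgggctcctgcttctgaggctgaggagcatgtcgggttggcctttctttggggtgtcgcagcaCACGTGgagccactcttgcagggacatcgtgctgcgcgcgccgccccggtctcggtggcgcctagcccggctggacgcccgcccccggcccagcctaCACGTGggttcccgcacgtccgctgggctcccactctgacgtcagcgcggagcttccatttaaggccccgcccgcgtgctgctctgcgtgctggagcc
Nop2 (chr6:125131633-125131932, + strand): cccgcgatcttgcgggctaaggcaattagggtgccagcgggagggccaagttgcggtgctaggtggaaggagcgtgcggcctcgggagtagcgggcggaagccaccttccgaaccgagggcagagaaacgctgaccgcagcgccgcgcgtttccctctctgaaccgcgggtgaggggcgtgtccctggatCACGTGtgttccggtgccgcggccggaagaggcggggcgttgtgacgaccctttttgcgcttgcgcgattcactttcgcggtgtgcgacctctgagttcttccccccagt
Sp5 (chr2:70474673-70474972, + strand): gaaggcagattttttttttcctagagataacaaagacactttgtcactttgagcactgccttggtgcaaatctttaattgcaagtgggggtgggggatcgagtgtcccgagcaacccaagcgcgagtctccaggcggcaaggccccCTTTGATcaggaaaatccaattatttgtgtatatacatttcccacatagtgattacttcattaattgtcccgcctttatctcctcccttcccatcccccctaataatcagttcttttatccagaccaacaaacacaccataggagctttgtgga

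The Cdk4 window holds CACGTG at 4 places and ATCAAAG once. The Ldha window holds CACGTG at 2 places and that of Nop2 at 1. The E-box reads the same on both strands, and the motif in the Sp5 window is on the opposite strand, where it appears as CTTTGAT. Over all 27025 genes with a window, 8.09% held CACGTG and 4.29% held ATCAAAG on either strand. Among tested genes with a window, CACGTG stood in 12.6% of the 4585 that rose, in 10.9% of the 4494 that fell and in 10.04% of the 2211 not called. It stood in 5 of 23 ribosome biogenesis genes with a window and in 5 of 23 nucleotide and one-carbon genes. Among the cyclin, CDK, CDK inhibitor, RB and E2F genes of G1 it stood in 4 of 15. Shares were lower in other growth lists, with 2 of 18 ribosomal protein genes, 2 of 18 replication genes, 1 of 20 mitosis genes and 2 of 17 amino acid and polyamine genes. Outside the growth lists, CACGTG stood in 3 of 12 WNT feedback genes and in 4 of 24 glycolysis and hypoxia genes. For granule neuron genes the count was 1 of 12, and for oligodendrocyte genes 0 of 11. ATCAAAG stood in 3.12% of the genes that rose and 2.89% of those that fell. By list it stood in 2 of 12 WNT feedback genes, Sp5 and Tnfrsf19, and in 2 of 20 mitosis genes. Counts were 1 of 12 for granule neuron, 1 of 11 for oligodendrocyte and 1 of 15 for G1 genes. They were 1 of 17 for amino acid and polyamine genes and 1 of 24 for glycolysis and hypoxia genes. No ribosome biogenesis, ribosomal protein, nucleotide or replication gene held it. These are matches of letters within short windows, without a measurement of binding.

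Genes that build ribosomes rose without exception on the lists examined. All 29 ribosome biogenesis genes were higher in the tumours, 24 by over 4-fold, with a median log2 fold change of 2.80. Ncl (chr1:86344719-86359400), the nucleolin of the nucleolus, measured 486, 408 and 539 CPM in the controls and 3396, 3377 and 3206 CPM in the tumours, 6.96-fold higher (adjusted p = 1.43e-06). Npm1, nucleophosmin, rose from 251, 229 and 312 CPM to 4166, 4248 and 3462 CPM (14.99-fold). Nop2, whose promoter is printed above, rose from 29.6, 24.6 and 36.2 CPM to 164, 169 and 204 CPM (5.93-fold). Ddx21, an RNA helicase of ribosomal RNA processing, rose 18.7-fold, from 33.1 to 39.1 CPM in the controls to 617 to 688 CPM. The 3 tumours were close together for these genes and well clear of the controls.

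The 25 cytosolic ribosomal protein genes on the list all rose by over 4-fold, with a median log2 fold change of 2.93. Rpl3 rose from 687, 565 and 759 CPM to 3221, 4276 and 3454 CPM (5.44-fold) and Rps6 from 421, 356 and 463 CPM to 2588, 3184 and 2729 CPM (6.85-fold). Rplp0, the stalk protein of the large subunit, rose 17.9-fold to 4846, 6686 and 5514 CPM. The elongation factor gene Eef1a1, which was chosen after its values were seen, measured 1857, 1843 and 2268 CPM in the controls and 19764, 27367 and 22494 CPM in the tumours. Tumour replicate 2 was highest for each of these 4 genes. Ribosomal protein genes have many near-identical copies in the genome, so how reads were shared among them is uncertain.

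The supply of building blocks moved the same way. All 26 nucleotide and one-carbon synthesis genes rose, 18 by over 4-fold (median log2 fold change 2.90). Cad, the enzyme of the first steps of pyrimidine synthesis, rose from 31.2, 30.3 and 37.9 CPM to 416, 417 and 411 CPM (12.5-fold, adjusted p = 6.07e-07). Mthfd2, a mitochondrial enzyme of the folate cycle, rose from 9.05, 7.74 and 10.4 CPM to 117, 183 and 134 CPM (15.95-fold). Tyms, thymidylate synthase, rose from 1.68, 2.3 and 2.33 CPM to 77.0, 64.3 and 78.9 CPM (34.9-fold). The purine enzyme Paics changed less, from 145, 149 and 145 CPM to 538, 533 and 508 CPM (3.6-fold). Within each gene the controls were close together and all tumours above them.

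Of 19 tested amino acid and polyamine genes, 16 rose, 1 fell and 2 did not pass, with a median log2 fold change of 2.62. The serine synthesis enzymes rose, Phgdh from 73.9, 71.3 and 85.8 CPM to 573, 651 and 503 CPM (7.47-fold) and Psat1 from 88.0, 87.3 and 88.8 CPM to 535, 594 and 494 CPM (6.15-fold). Slc1a5, a glutamine transporter, rose from 1.12, 1.91 and 3.07 CPM to 298, 338 and 227 CPM (142-fold). Odc1, the rate-limiting enzyme of polyamine synthesis, rose 6.15-fold and Srm, spermidine synthase, 10.9-fold. The member that fell was Ddit3, the stress factor CHOP, from 17.7, 24.2 and 17.8 CPM to 4.38, 8.09 and 3.05 CPM (log2 fold change -1.93 ± 0.35, adjusted p = 0.00133). Amd1, on the same list, has near-identical copies and was listed near 0, so nothing was read from it.

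DNA replication and mitosis genes rose throughout, 22 of 22 with a median log2 fold change of 4.08 and 25 of 25 with a median of 6.67. The mitosis list had the highest median of the lists with more than 6 tested members. Mcm2, a subunit of the replicative helicase, measured 8.93, 10.1 and 9.47 CPM in the controls and 276, 239 and 263 CPM in the tumours (27.3-fold, adjusted p = 4.66e-07). Pcna, the sliding clamp, rose from 43.3, 45.0 and 45.4 CPM to 442, 358 and 427 CPM (9.19-fold). Mki67, the gene of the proliferation antigen Ki-67, measured 0.721, 0.348 and 9.7 CPM against 378, 419 and 456 CPM (log2 fold change 6.88 ± 1.10, adjusted p = 0.000667). Top2a, the topoisomerase of mitotic chromosomes, measured 0.361, 0.522 and 12.6 CPM against 747, 615 and 658 CPM (log2 fold change 7.24 ± 1.29, adjusted p = 0.00119). Control replicate 3 was the highest control for both. Without it the log2 fold changes were 9.64 for Mki67 and 10.62 for Top2a.

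Among 20 genes of G1 control, 17 rose, 2 fell and 1 did not pass. Cdk4, with CACGTG at 4 places in its promoter window, measured 29.0, 29.6 and 34.6 CPM in the controls and 719.9, 635 and 672 CPM in the tumours (log2 fold change 4.44 ± 0.13, 21.7-fold, adjusted p = 4.82e-07). Its relative Cdk6 rose from 0.401, 1 and 0.961 CPM to 60.1, 65.1 and 66.1 CPM (81.4-fold). Their cyclin partners Ccnd1 and Ccnd2 rose 4.89-fold and 38.8-fold. Cdkn2a (chr4:89274471-89294653), which encodes the inhibitors INK4A and ARF, rose with the kinases. It measured 0, 0.0435 and 1.56 CPM in the controls and 121, 114 and 109 CPM in the tumours (log2 fold change 7.81 ± 0.79, adjusted p = 4.95e-05). Without control replicate 3 the fitted value was 12.17, which rests on 1 control count. Gene counts do not separate the INK4A and ARF transcripts. The members that fell were the inhibitor genes Cdkn1b, from 66.5, 108 and 68.5 CPM to 42.5, 45.8 and 42.5 CPM, and Cdkn2d, from 29.2, 29.8 and 26.1 CPM to 15.97, 14.6 and 11.2 CPM. Another inhibitor gene, Cdkn1c, on the list of imprinted genes, rose from 6.77, 6.74 and 8.69 CPM to 34.8, 36.6 and 40.9 CPM (5.06-fold).

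The partners and antagonists of MYC did not move in 1 direction. Of 12 network genes 6 rose, 3 fell and 3 did not pass. Max, the obligate partner, measured 108, 98.5 and 99.9 CPM against 87.6, 94.5 and 98.4 CPM (log2 fold change -0.13 ± 0.09, adjusted p = 0.236). Mxd3, a MAX-binding repressor that is known to be present in dividing progenitors, rose from 0.16, 0.13 and 0.0915 CPM to 18.4, 13.5 and 19.8 CPM (129-fold). Mxd1, a related repressor of differentiating cells, fell from 15.1, 18.5 and 14.5 CPM to 7.81, 8.51 and 10.5 CPM. The paralog Mycl rose 6.03-fold and Mycn fell from 3, 4.56 and 4.53 CPM to 1.66, 0.732 and 1.63 CPM (adjusted p = 0.00551). Mxd4 passed narrowly (log2 fold change -0.31 ± 0.12, adjusted p = 0.0412), and its call was lost in 9 of 14 alternatives.

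BCL2 family genes, which set the threshold of apoptosis, were split, with 7 of 13 tested members higher and 4 lower. The survival gene Mcl1 rose from 97.0, 94.5 and 98.3 CPM to 231, 189 and 195 CPM (2.12-fold, adjusted p = 4.69e-05). Bcl2 fell from 19.3, 23.4 and 24.7 CPM to 12.7, 10.3 and 15.2 CPM (log2 fold change -0.82 ± 0.18), and Bcl2l1 from 171, 162 and 161 CPM to 72.1, 75.8 and 66.7 CPM (log2 fold change -1.20 ± 0.09). Bcl2l2, also a survival gene, fell from 151, 153 and 139 CPM to 15.5, 15.7 and 16.1 CPM. Among genes that promote death, Bak1 rose 7.61-fold, Bax 3.16-fold and Bcl2l11 2.71-fold. Of 16 chromatin genes 10 rose and 4 fell. Ezh2, the methyltransferase of Polycomb complex 2, rose from 8.93, 8.04 and 10.9 CPM to 145, 137 and 134 CPM (14.9-fold). The DNA methyltransferase gene Dnmt3b rose 61.5-fold, and Cbx7, a subunit of Polycomb complex 1, fell from 40.7, 43.3 and 42.0 CPM to 3.43, 3.69 and 3.76 CPM.

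**Figure D2:**
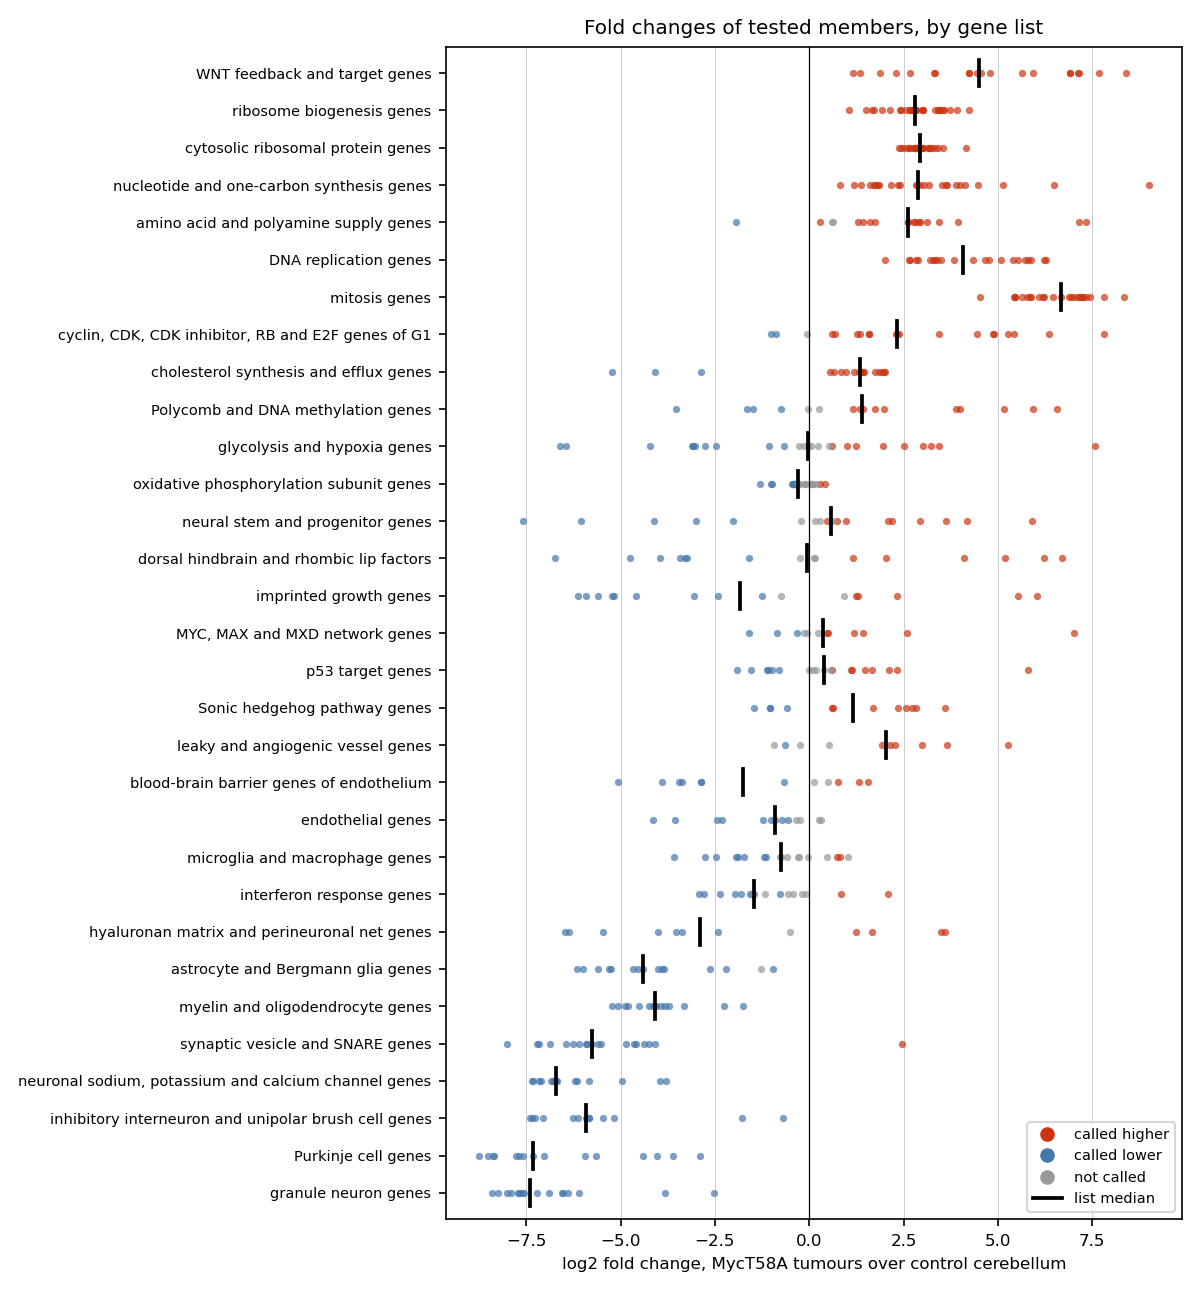
Log2 fold change, MycT58A tumours minus control cerebellum, of each tested member of selected gene lists, 1 point per gene (red for higher, blue for lower, grey for not called) and a black tick at the list median. All members of the WNT, ribosome, nucleotide, replication and mitosis lists lie above 0 and all granule neuron, Purkinje, interneuron, oligodendrocyte and ion channel genes below it, while glycolysis genes spread to both sides.

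Glycolysis and hypoxia genes did not shift as a block, and some members of the same family moved in opposite directions. Of 25 tested, 9 rose, 10 fell and 6 did not pass, with a median log2 fold change of -0.04. The subunit genes of lactate dehydrogenase were such a pair. Ldha rose from 192, 182 and 248 CPM to 2454, 2303 and 2018 CPM (10.9-fold, adjusted p = 1.39e-06), while Ldhb fell from 888, 697 and 794 CPM to 54.1, 31.2 and 42.7 CPM (log2 fold change -4.22 ± 0.23, adjusted p = 2.39e-06). Hexokinase showed the same kind of pair. Hk2 rose from 20.6, 26.6 and 23.8 CPM to 134, 138 and 136 CPM (5.74-fold), and Hk1 fell from 657, 552 and 648 CPM to 104, 94.5 and 77.1 CPM (log2 fold change -2.75 ± 0.15). In all 4 genes the groups were far apart with little spread inside them. Whether the RNAs of a pair came from the same cells was not tested.

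Slc16a3, the lactate exporter MCT4, rose from 0.881, 0.826 and 0.778 CPM to 165, 215 and 96.9 CPM (191-fold), and Pdk1, the kinase that restrains pyruvate dehydrogenase, rose 8.08-fold. The genes that fell included forms known from neurons and astrocytes. The neuronal enolase Eno2 fell from 1594, 1024 and 1158 CPM to 21.3, 3.45 and 13.9 CPM, the brain aldolase Aldoc from 1993, 3192 and 6026 CPM to 63.0, 16.8 and 48.8 CPM, and the glucose transporter of neurons Slc2a3 from 125, 148 and 121 CPM to 13.99, 20.6 and 11.9 CPM. Summed over the list, neuron genes of the granule type stood at 0.690% to 1.35% of their control level in the same tumours, and the part of cell makeup in these falls was not tested. In bulk tissue, fewer cells of a type and less RNA per cell cannot be told apart. Eno1 has near-identical copies and was listed near 0, so it was not read.

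**Figure D3:**
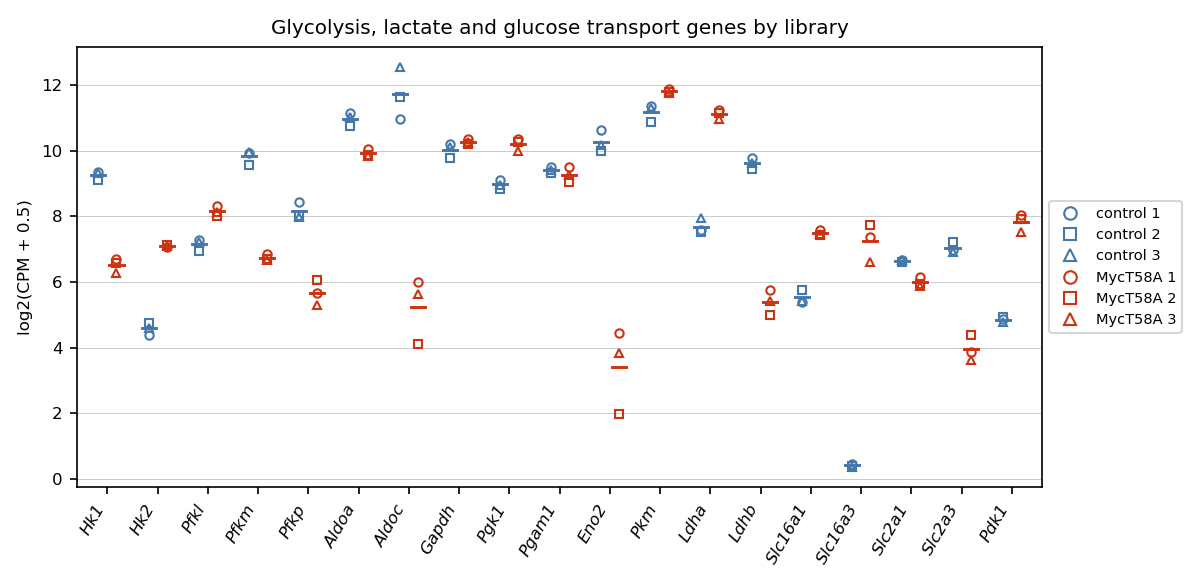
Level of glycolysis genes in each of the 6 libraries (log2 of CPM plus 0.5, control in blue, MycT58A in red, symbols for replicates). Ldha, Hk2, Pdk1 and Slc16a3 are higher in every tumour than in every control, and Ldhb, Hk1, Aldoc, Eno2 and Slc2a3 are lower.

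Oxidative phosphorylation genes changed little. Of 25 subunit genes 12 fell, 2 rose and 11 did not pass, with a median log2 fold change of -0.29. Sdha, a subunit of complex II, fell from 727, 585 and 704 CPM to 291, 248 and 279 CPM (log2 fold change -1.30 ± 0.13). Cox4i1 of complex IV measured 889, 726 and 802 CPM against 574, 647 and 592 CPM (log2 fold change -0.42 ± 0.12, adjusted p = 0.0134), and Uqcrfs1 of complex III rose from 146, 133 and 135 CPM to 203, 181 and 169.8 CPM. The call of Cox4i1 was lost in 6 of 14 alternatives and that of Uqcrfs1 in 2. The number that fell dropped to 3 to 7 when a minimum fold of 1.5 was required, when all 9 libraries were fitted, or without control replicate 1 or 3 or MycT58A replicate 3.

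Cholesterol genes divided by role, with 15 of 18 higher and 3 lower. Hmgcs1, an enzyme of synthesis, rose from 132, 152 and 128 CPM to 570.5, 569 and 525 CPM (4.04-fold). The genes that fell serve efflux and transport. Abca1, the efflux pump, fell from 100.1, 76.4 and 69.3 CPM to 10.2, 9.62 and 14.1 CPM (log2 fold change -2.86 ± 0.21). Apoe, the apolipoprotein made by astrocytes, fell from 1976, 1806 and 2079 CPM to 139, 58.6 and 146 CPM (log2 fold change -4.09 ± 0.36).

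Progenitor genes were mixed, with 9 of 19 tested members higher and 5 lower. Sox11, a factor of immature neurons, rose from 1.96, 2.3 and 3.75 CPM to 138, 148 and 191 CPM (59.7-fold). Sox4 rose 18.1-fold, Nes, the gene of the intermediate filament nestin, 7.7-fold, and Sox2 1.96-fold. Sox1, another early neural factor, moved the other way, from 39.6, 36.0 and 49.0 CPM to 0.353, 0.0349 and 0.25 CPM (log2 fold change -7.59 ± 0.42). Without MycT58A replicate 1 that change was -8.21.

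Genes of hindbrain and cerebellar identity did not rise as a group. Of 16 tested dorsal hindbrain and rhombic lip factors 6 rose and 7 fell. Barhl1, a granule lineage factor, fell from 22.0, 8.43 and 10.3 CPM to 0.919, 0.279 and 0.292 CPM (log2 fold change -4.75 ± 0.59, and -5.54 without MycT58A replicate 1). Zic1 fell from 436, 473 and 454 CPM to 33.8, 36.9 and 55.4 CPM. Atoh1, the factor of the upper rhombic lip, had no count in the controls and at most 0.0417 CPM in a tumour. Msx1, a dorsal midline factor, rose from 0.401, 0.826 and 0.549 CPM to 21.1, 25.0 and 19.2 CPM (36.7-fold), and Neurog2, a proneural factor, rose 74.7-fold. Posterior Hox and segmentation genes were mostly too low to test, with 1 of 16 tested. Without the filter on low counts 7 passed as higher, and 5 did without any of the control replicates, while the 15 untested genes reached at most 1.59 CPM in a tumour.

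Genes that mark forebrain position were among those that rose, 5 of 6 tested, with a median log2 fold change of 5.81. Lhx2, a LIM factor of the forebrain, measured 0.16, 0.0435 and 0.183 CPM in the controls and 225, 225 and 154 CPM in the tumours (log2 fold change 10.55 ± 0.33, adjusted p = 5.01e-07). Otx1 rose from 0.0801, 0.0435 and 0.0458 CPM to 5.27, 5.19 and 7.39 CPM (95.7-fold). Emx2, also on the list of WNT medulloblastoma genes, had no count in the controls and 10.6, 7.15 and 11.0 CPM in the tumours, at least 221-fold higher against a floor of 3 counts over the control group. The cortical factor Emx1 had no count in the tumours. Dlx2 rose from 0, 0 and 0.137 CPM to 9.26, 11.2 and 11.3 CPM, a ratio of 246 (exact 95% interval 83.9 to 1195, counting error only). All 3 control counts of Dlx2 were in replicate 3, without which its fitted log2 fold change was 11.12, resting on no control count.

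At the midbrain-hindbrain boundary 3 of 6 tested genes rose and 3 fell. Otx2, which is anterior to the boundary, measured 2.16, 20.5 and 48.1 CPM in the controls and 189, 265 and 201 CPM in the tumours (log2 fold change 3.21 ± 0.86, adjusted p = 0.00941, and 4.34 without control replicate 3). Gbx2, its posterior counterpart, rose from 0.2, 0.0435 and 0.0915 CPM to 4.7, 5.72 and 3.76 CPM (log2 fold change 5.32 ± 0.47, and 6.09 without control replicate 1). En2 fell from 89.8, 114 and 81.7 CPM to 36.0, 32.6 and 35.9 CPM, and En1 from 12.3, 2 and 10.1 CPM to 0, 0.0697 and 0.543 CPM. The change of En1 was -5.38 ± 1.07 on the log2 scale, -4.76 without MycT58A replicate 1 and -7.66 without MycT58A replicate 3.

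Of the 16 imprinted growth genes 9 fell and 5 rose. Peg3 fell from 135, 109 and 132 CPM to 3, 3.1 and 4.38 CPM (log2 fold change -5.17 ± 0.19, adjusted p = 6.13e-07). Rian and Meg3, non-coding RNAs of the imprinted Dlk1 region, fell from 90.5, 108 and 89.2 CPM to 2.33, 0.976 and 1.42 CPM and from 37.7, 56.5 and 40.9 CPM to 1.41, 0.279 and 1.13 CPM. The paternally expressed Dlk1 of that region went the other way, from 0.0801, 0.565 and 0.686 CPM to 15.3, 35.5 and 10.2 CPM (log2 fold change 5.53 ± 0.71, and 4.87 without MycT58A replicate 2). Igf2, a growth factor, fell from 53.2, 167 and 71.6 CPM to 23.1, 0.837 and 11.2 CPM. Its log2 fold change was -3.05 ± 0.93 (adjusted p = 0.0171), -4.02 without MycT58A replicate 1 and -2.39 without control replicate 2, and the call was lost without control replicate 2 or MycT58A replicate 3. H19 did not pass (0.32, 1 and 11.0 CPM against 4.49, 16.5 and 2 CPM, adjusted p = 0.499). Control replicate 3 was its highest control, and without that library H19 passed as higher (log2 fold change 3.61, adjusted p = 0.0199). Without MycT58A replicate 2 its log2 fold change was -0.31 (adjusted p = 0.823).

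In the Sonic hedgehog pathway 8 of 12 genes rose and 4 fell. The transducer Smo rose from 37.2, 36.8 and 41.1 CPM to 237, 227 and 214 CPM (5.89-fold), and the factors Gli2 and Gli3 rose 6.56-fold and 7.15-fold. Of 3 genes used as readouts of pathway activity, 2 were lower and 1 was higher. Ptch1 fell from 108, 135 and 145 CPM to 46.6, 46.1 and 48.4 CPM (log2 fold change -1.46 ± 0.13). Hhip fell from 9.37, 16.2 and 10.6 CPM to 5.8, 8.02 and 3.88 CPM (adjusted p = 0.0189), and Gli1 rose from 9.53, 9.26 and 12.9 CPM to 12.6, 21.9 and 14.99 CPM (adjusted p = 0.0418). The call of Hhip was lost in 5 of 14 alternatives and that of Gli1 in 8. The number of pathway genes that fell was 2 without control replicate 2 or MycT58A replicate 3.

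Genes that PI3-kinase signalling is known to restrain through FOXO factors were mostly lower, 8 of 13, with 3 higher. Pik3ip1, an inhibitor of PI3-kinase, fell from 41.4, 45.9 and 45.3 CPM to 10.9, 18.8 and 11.1 CPM (log2 fold change -1.70 ± 0.22). Erbb3 fell from 3.45, 4.91 and 3.52 CPM to 0.177, 0.349 and 0.209 CPM, and Irs2, an adaptor of the insulin receptor, from 56.5, 48.5 and 63.0 CPM to 27.1, 21.4 and 24.8 CPM. Of the factor genes, Foxo1 and Foxo3 fell by 1.18 and 1.67 on the log2 scale, and Foxo6 rose from 1.12, 1.74 and 1.33 CPM to 8.13, 6.83 and 4.59 CPM (4.67-fold). Erbb3 is also known from the oligodendrocyte lineage, whose genes stood far lower in these tumours, and their part in its fall was not tested.

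Target genes of p53 gave no common direction, with 8 of 19 higher, 6 lower and 5 not called. Mdm2, which degrades p53, measured 39.4, 35.2 and 43.8 CPM against 40.5, 41.5 and 44.2 CPM (log2 fold change 0.09 ± 0.11, adjusted p = 0.466). Ccng1 fell from 75.8, 75.5 and 87.8 CPM to 40.7, 38.5 and 40.6 CPM, and Aen, a nuclease, rose 2.21-fold. Cdkn1a, the inhibitor p21, measured 16.1, 19.7 and 30.7 CPM against 34.7, 36.5 and 29.6 CPM. The groups of Cdkn1a overlapped, and its call (adjusted p = 0.0464) was lost in 10 of 14 alternatives.

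Human medulloblastoma falls into the WNT, SHH, Group 3 and Group 4 subgroups, each with its own expressed genes. Of 5 WNT subgroup genes 4 rose. Besides Wif1 and Emx2, Tnc, the matrix protein tenascin C, rose from 40.3, 48.8 and 40.03 CPM to 184, 131 and 94.8 CPM (3.17-fold). The fifth, Gad1, is an enzyme of GABA synthesis that cerebellar interneurons and Purkinje cells hold at high levels, and it fell from 766, 895 and 1133 CPM to 12.5, 13.9 and 13.4 CPM (log2 fold change -6.13 ± 0.20). Of 4 tested SHH subgroup genes 2 rose, Eya1 by 8.82-fold and Sfrp1 by 2.25-fold, and Hhip fell. Neither rise passed in the fit of all 9 libraries (adjusted p = 0.0771 for Eya1 and 0.42 for Sfrp1). Of 3 tested Group 3 genes 1 rose and 1 fell, while Nrl and Gabra5 were too low to test. Npr3 rose 9.55-fold, a call that was lost in the fit of all 9 libraries (adjusted p = 0.0786). Mab21l2 fell from 1.88, 9.21 and 33.99 CPM to 1.1, 0.174 and 0.209 CPM (log2 fold change -4.89 ± 1.17, -6.25 without MycT58A replicate 1 and -3.41 without control replicate 3). Of 6 Group 4 genes 5 fell, and 3 did without control replicate 2 or 3. Among them Kcna1, a potassium channel of neurons, fell from 295, 359.8 and 185 CPM to 6.71, 0.627 and 4.13 CPM (log2 fold change -6.20 ± 0.74, and -6.90 without MycT58A replicate 1). Eomes fell from 16.1, 16.9 and 39.9 CPM to 0.353, 0.488 and 0.417 CPM (log2 fold change -5.84 ± 0.49, and -5.22 without control replicate 3). Kcna1 and Eomes are also genes of cerebellar neurons, and neuron genes fell in the same libraries. The part of cell makeup in the falls of the Group 4 list was not tested.

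Granule neuron and Purkinje cell genes had the lowest medians of all lists. All 16 granule neuron genes (median log2 fold change -7.39), all 15 Purkinje cell genes (-7.33) and all 13 genes of interneurons and unipolar brush cells (-5.92) fell. Gabra6, the receptor subunit of mature granule neurons, measured 871, 773 and 512 CPM in the controls and 2.47, 0.174 and 5.8 CPM in the tumours (log2 fold change -8.02 ± 0.98, adjusted p = 0.000141, and -9.07 without MycT58A replicate 3). Neurod2, a factor of granule and other excitatory neurons, fell from 157, 143 and 184 CPM to 1.7, 1.53 and 1.92 CPM (log2 fold change -6.56 ± 0.16). Pcp2, a Purkinje cell protein, fell from 202, 135 and 164 CPM to 0.0707, 0.0697 and 1.34 CPM (log2 fold change -8.50 ± 0.72, and -11.11 without MycT58A replicate 3). Ppp1r17, also of Purkinje cells, fell from 256, 235 and 248 CPM to 1.17, 2.16 and 2.34 CPM (log2 fold change -7.03 ± 0.25). For these 4 genes no tumour was above 1.19% of the control mean. As a sum over the list, the granule genes stood at 1.28%, 0.690% and 1.35% of the control mean in tumour replicates 1, 2 and 3.

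Genes of the machinery that neurons share fell too. Of 19 synaptic vesicle and SNARE genes 18 fell (median log2 fold change -5.76), and all 16 sodium, potassium and calcium channel genes fell (median -6.71). Snap25, a SNARE protein of synapses, fell from 4427, 3382 and 3016 CPM to 41.5, 3.59 and 30.4 CPM (log2 fold change -7.16 ± 0.90, adjusted p = 0.00017). The sodium channel gene Scn8a fell by 6.69 and the calcium channel gene Cacna1a by 4.97 on the log2 scale. The exception was Stx1a, a syntaxin, which rose from 0.801, 1.26 and 1.24 CPM to 7.99, 5.26 and 4.8 CPM (5.47-fold, adjusted p = 0.000218). In the extracellular matrix of neural tissue 4 of 12 genes rose and 7 fell. Vcan, the versican of immature and tumour matrix, rose from 25.3, 34.4 and 34.0 CPM to 353, 494 and 296 CPM (12.2-fold), and Bcan, the brevican of mature brain, fell from 207, 157 and 173 CPM to 17.4, 14.2 and 14.9 CPM.

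Glial genes fell as well, to unequal extents among the tumours. Of 15 astrocyte and Bergmann glia genes 14 fell (median log2 fold change -4.40). Slc1a3, a glutamate transporter, fell from 1603, 2079 and 1947 CPM to 96.7, 142 and 151 CPM (log2 fold change -3.85 ± 0.22). Aqp4, the water channel of astrocyte endfeet, fell from 506, 512 and 580.0 CPM to 35.9, 1.22 and 32.0 CPM (log2 fold change -4.53 ± 0.99). The member that did not pass was Gfap, at 279, 219.6 and 559.9 CPM against 262, 5.96 and 168 CPM (adjusted p = 0.276). Tumour replicate 2 was lowest for Aqp4 and Gfap, but not for Slc1a3. All 16 oligodendrocyte genes fell (median -4.09). Mbp, a protein of myelin, fell from 2279, 2682 and 1185 CPM to 328, 13.3 and 19.996 CPM (log2 fold change -4.09 ± 1.24, adjusted p = 0.0164, and -6.93 without MycT58A replicate 1). The oligodendrocyte sum in tumour replicate 1 was 16.4% of the control mean, against 1.63% and 2.41% in the others.

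**Figure D4:**
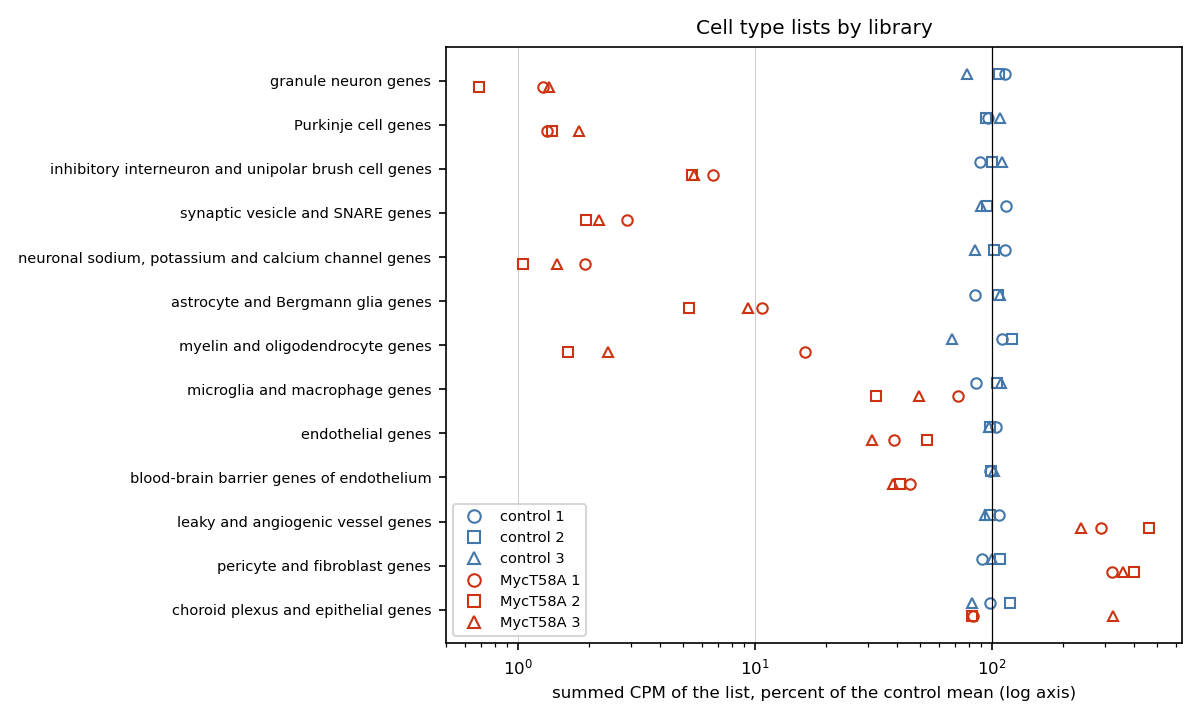
Summed CPM of the genes of each cell type list in each of the 6 libraries, as a percent of the control mean (log axis, control in blue, MycT58A in red, symbols for replicates). Neuron and glia sums are lower in every tumour than in every control, myelin genes are highest in tumour replicate 1 among the tumours, and choroid genes are above the controls in tumour replicate 3 alone.

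Genes of resident brain macrophages gave a mixed picture. Of 18 microglia and macrophage genes 8 fell, 2 rose and 8 did not pass. P2ry12, a receptor of homeostatic microglia, fell from 18.0, 18.3 and 19.3 CPM to 3.15, 0.488 and 0.918 CPM (log2 fold change -3.60 ± 0.58, and -4.72 without MycT58A replicate 1). Cx3cr1 fell from 28.3, 36.2 and 31.6 CPM to 11.9, 4.22 and 9.85 CPM (log2 fold change -1.89 ± 0.35). The lysosomal Cd68 rose from 3.73, 4.35 and 4.25 CPM to 8.66, 5.65 and 7.22 CPM (1.75-fold, adjusted p = 0.0116). The other member that rose was Tmem119, at 12.3, 12.6 and 12.6 CPM against 26.3, 23.01 and 12.7 CPM (adjusted p = 0.0306), a call lost in 8 of 14 alternatives. None of the 14 lymphocyte genes reached the level needed for a test, in hosts that lack a thymus, and their sum was 1.38 to 1.71 CPM in the tumours and 1.20 to 1.48 CPM in the controls.

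Vessel genes did not change as a block. General endothelial genes fell or did not pass, 9 and 4 of 13. Tek, the angiopoietin receptor, fell from 23.1, 23.04 and 21.8 CPM to 2.37, 1.39 and 2.05 CPM (log2 fold change -3.55 ± 0.22), while Cdh5, the cadherin of endothelial junctions, measured 12.4, 15.3 and 13.2 CPM against 14.7, 23.8 and 10.1 CPM (adjusted p = 0.457). Of 12 blood-brain barrier genes 7 fell and 3 rose. Cldn5, the barrier claudin, fell from 49.2, 45.5 and 43.7 CPM to 5.94, 3.42 and 3.88 CPM (log2 fold change -3.38 ± 0.22, adjusted p = 4.76e-06), and Slco1a4, a transporter of brain endothelium, from 37.5, 40.6 and 34.1 CPM to 1.31, 0.627 and 1.42 CPM (log2 fold change -5.07 ± 0.28). Abcg2, a drug efflux pump that stem cells also express, rose 2.92-fold. The barrier gene Mfsd2a rose 1.69-fold (adjusted p = 0.0127), a call lost in 2 of 14 alternatives. Cldn5 and Slco1a4 fell 10.4-fold and 33.6-fold, but falls were not limited to barrier genes. Tek fell about as far as Cldn5 on the log2 scale, while Cdh5 did not pass.

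Of 10 genes of leaky and angiogenic vessels 6 rose, 1 fell and 3 did not pass. Nid2, a basement membrane protein, rose from 2.76, 2.91 and 2.56 CPM to 106, 129 and 82.3 CPM (38.4-fold, adjusted p = 6.85e-07), and Col4a1, a collagen of basement membranes, 4.82-fold. Aplnr, the apelin receptor, rose 7.97-fold. Angpt2, of activated endothelium, measured 1.68, 3.65 and 2.01 CPM against 4.98, 17.6 and 5.39 CPM (log2 fold change 1.93 ± 0.57, and 1.09 without MycT58A replicate 2). Plvap, a protein of fenestrated vessels, measured 10.5, 20.4 and 5.76 CPM against 8.27, 12.5 and 10.4 CPM (adjusted p = 0.625).

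Among 15 pericyte and fibroblast genes 5 rose and 4 fell, and 2 fell without control replicate 2 or 3 or MycT58A replicate 3. Dcn, the proteoglycan decorin, rose from 35.7, 59.1 and 39.5 CPM to 999, 1351 and 1289 CPM (27.1-fold, adjusted p = 1.92e-06), and Anpep, a peptidase, 19.9-fold. Pdgfrb, the pericyte receptor, measured 23.5, 22.9 and 24.0 CPM against 30.6, 22.2 and 21.5 CPM (adjusted p = 0.679), and Vtn, a pericyte product, fell from 103, 125 and 80.6 CPM to 19.4, 11.7 and 7.6 CPM. The rise of Dcn was therefore not accompanied by these pericyte genes. Of 12 tested choroid plexus and epithelial genes 5 rose and 1 fell, and 6 fell without MycT58A replicate 3. Clic6, a chloride channel protein, rose from 4.25, 7.52 and 4.48 CPM to 64.4, 73.4 and 90.8 CPM (14.1-fold). Ttr, the transthyretin of the choroid plexus, measured 3.08, 7.82 and 14.3 CPM against 0.707, 0.627 and 236 CPM (log2 fold change 3.24 ± 1.91, adjusted p = 0.152). Tumour replicate 3 alone was high, and without it the log2 fold change of Ttr was -3.63 (adjusted p = 0.0041).

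Antigen presentation and interferon genes did not rise as groups. Of 13 tested MHC class I genes 4 rose and 5 fell, and of 17 tested interferon genes 2 rose and 9 fell, or 5 without MycT58A replicate 3. The class I heavy chain H2-D1 fell from 80.6, 84.0 and 51.5 CPM to 13.3, 14.8 and 11.5 CPM (log2 fold change -2.45 ± 0.21), and B2m, its light chain, measured 65.7, 76.1 and 117 CPM against 72.4, 59.9 and 59.9 CPM (adjusted p = 0.101). H2 genes have near-identical copies, so their counts are uncertain. Stat2, a factor of interferon signalling, fell from 43.8, 32.7 and 28.5 CPM to 3.07, 4.36 and 6.39 CPM. Erap1, a peptidase that trims antigens, rose 2.07-fold. Bst2, an interferon-induced surface protein, rose from 2.24, 3 and 9.38 CPM to 22.7, 20.7 and 18.7 CPM (log2 fold change 2.09 ± 0.50, and 3.04 without control replicate 3).

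The highest folds of all belonged to developmental regulators and signalling genes with few or no counts in cerebellum. Fst, the activin antagonist follistatin, had no control count and 26.5, 54.8 and 29.3 CPM in the tumours, at least 869.6-fold higher against the floor. Rspo4, a secreted amplifier of WNT signals, measured 26.0, 30.8 and 14.8 CPM (at least 568-fold higher) and Irs4, an adaptor of insulin signalling, 25.3, 12.3 and 27.1 CPM (at least 494-fold higher), both also without a control count. Tumour replicates differed for these genes, but none was near the controls. Foxa2, a floor plate and endoderm factor, measured 38.5, 31.6 and 53.1 CPM with 1 control count, a ratio of 2820 (exact 95% interval 506 to 111428). Osr2 measured 43.4, 48.7 and 38.4 CPM with 2 control counts, a ratio of 1530 (423 to 12635). Phox2a and Tlx2, factors of noradrenergic and peripheral neurons, were at least 268-fold and at least 274-fold higher, and the peptide hormone gene Iapp at least 249-fold. Tex15, a gene known from male germ cells, had the highest tumour level of this set, at 1374, 1178 and 1308 CPM against 0.801, 0.826 and 1.24 CPM (log2 fold change 10.40 ± 0.23, adjusted p = 4.66e-07).

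At the other end, Ldoc1 measured 15.98, 18.8 and 4.48 CPM in the controls with 1 count in the tumours, a ratio of 1078 lower (exact 95% interval 193 to 42623). Syt10, a synaptotagmin, measured 11.8, 15.04 and 12.5 CPM with 1 tumour count, 1059 lower (190 to 41891), and Sstr3, a somatostatin receptor, 15.5, 16.4 and 6.08 CPM with 2 tumour counts, 521 lower (144 to 4309). Sycp1, named for the synaptonemal complex, fell from 43.7, 37.1 and 20.3 CPM to 0.0353, 0.0349 and 0.0835 CPM (log2 fold change -9.27 ± 0.50). The most variable genes of the tumours at a mean of 10 CPM or more included Gfap, Kcnj10, Ptgds and Ttr, genes of glia, meninges or choroid plexus. Kcnj10, a glial potassium channel, measured 50.8, 0.837 and 20.6 CPM in the tumours and 693, 601 and 897 CPM in the controls (log2 fold change -4.92 ± 1.14, and -6.09 without MycT58A replicate 1). Ptgds measured 114, 3.45 and 4.55 CPM against 226, 1230.3 and 399 CPM (log2 fold change -3.93 ± 1.42), with -7.26 without MycT58A replicate 1 and -2.94 without control replicate 2. The call of Ptgds was lost without control replicate 2 or MycT58A replicate 3.

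The libraries labelled EV allow the tumours to be compared by vector. In a fit of all 9 libraries, 1259 of 15171 genes (8.30%) differed between MycT58A and EV tumours, and 19 of the genes named by rule were among them. Myc itself was not, at 360.01, 19.9 and 762 CPM in the libraries labelled EV and 918, 859 and 727 CPM in the MycT58A tumours on the scale of 9 libraries (log2 difference 1.13 ± 1.37, adjusted p = 0.592). The library labelled EV replicate 3 held Myc within the range of the MycT58A tumours, so the level of Myc does not separate the labels. Wif1 (1792, 3080.02 and 1316 CPM in EV against 2036, 2629 and 1609.8 CPM) and Axin2 (216, 212 and 198 CPM against 216, 187 and 229 CPM) overlapped between the tumour groups as well, with adjusted p of 0.975 and 0.968. 

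Among the autosomes and the X chromosome, the highest median fold change was that of chromosome 8. Its 753 tested genes had a median log2 fold change of 0.49, with 387 of them (51.4%) higher. The medians of the other autosomes ran from -0.26 on chromosome 18 to 0.10 on chromosome 4, and that of the X chromosome was -0.26. The shift was present in each tumour, with chromosome 8 medians of 0.40, 0.37 and 0.37 in replicates 1, 2 and 3 over genes with at least 5 CPM in the controls. On that measure chromosome 18 was the lowest, at -0.47, -0.46 and -0.44. The shift of chromosome 8 ran along its length, where 7 windows of 20 Mb had medians from 0.32 to 0.72. The EV tumours differed from each other, with chromosome 8 medians of -0.45, 0.35 and 0.01 in replicates 1, 2 and 3. The median of EV replicate 2 was near those of the MycT58A tumours, so the shift was not particular to them. The pattern was seen after the values were computed, and DNA copy number was not measured.

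**Figure D5:**
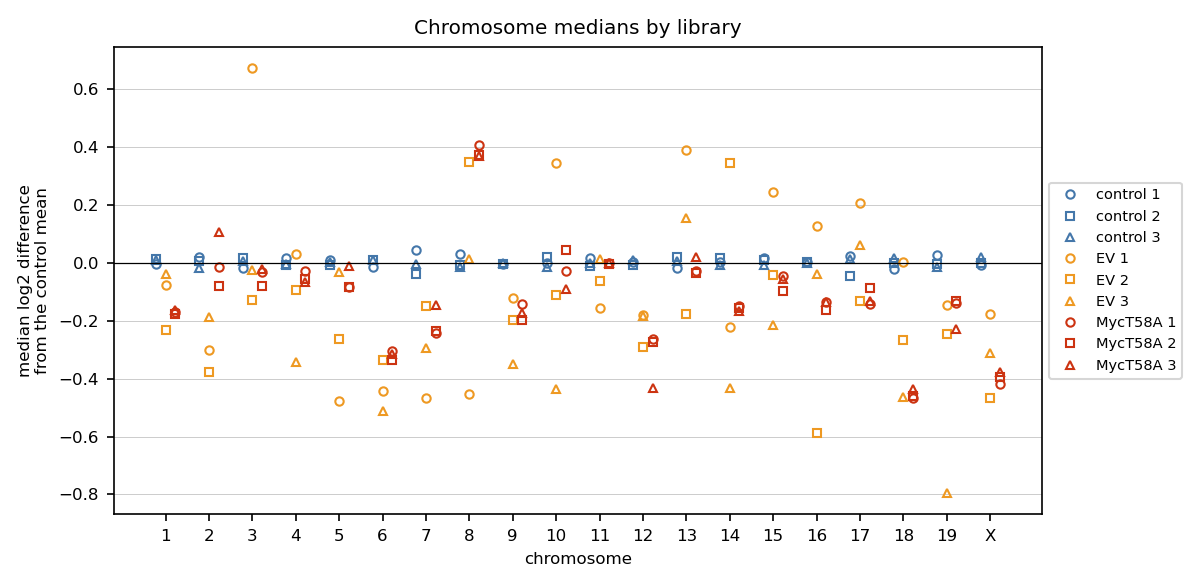
Median log2 difference from the control mean of the genes on each autosome and the X chromosome, for each library (symbols for replicates, control in blue, MycT58A in red and EV in orange). Chromosome 8 is the highest in the MycT58A tumours at 0.37 to 0.40 and chromosome 18 the lowest. The EV tumours differ from each other, and EV replicate 2 is near the MycT58A tumours on chromosome 8.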

How the data were processed

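RNA-seq of 6 mouse libraries was compared, 3 of MycT58A tumours and 3 of control cerebellum, grouped by the source name and genotype labels. Replicate numbers follow the order of the samples and pair nothing. Per the labels' protocols, RNA was extracted from frozen dissected tissue with the NucleoSpin RNA kit and libraries followed standard Illumina steps. The values deposited by the authors are raw counts per gene symbol. The submitters' processing notes name bcl2fastq, TopHat, edgeR and the mm10 build. Versions, annotation, read counter and strandedness are each not given in the sources used here, so overlapping and antisense genes cannot be told apart.

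From these counts, the filterByExpr function (edgeR 4.0.16, R 4.3.3) with min.count 10 and min.total.count 15 left 14758 of 24444 symbols. In all, 5363 symbols had no count in the 6 libraries. Counts were scaled by TMM and tested with glmQLFit and glmQLFTest at a Benjamini-Hochberg adjusted p of 0.05. The fit was checked on simulated counts in which few genes were changed, as many up as down. That check cannot test the scaling where most genes differ, as here. Levels are CPM, and ± is the SE of a log2 fold change. Where a group summed to 0 counts, the fold is a lower bound computed with 3 counts in their place. Where it summed to 1 to 3, the ratio of rates is given with its exact 95% interval, which like the bound covers counting error only. Gene positions are from GENCODE vM21 (mm10) and promoter windows from RefSeq (GRCm38.p6), of which 11290 matched tested genes by symbol.

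The members and the 45 gene lists (696 symbols) were chosen with earlier results of these data known. Genes were named by a rule: 1 or more leading members of each list, the 10 highest and 10 lowest log2 fold changes at 10 CPM or more in the higher group without overlap, the 2 members of smallest p of each list with 1 from the other direction, and the 5 most variable genes among the tumours, without predicted genes. This gave 208 genes, and a further 36 list members and sex-linked genes were named after their values were seen. Some of these genes are not reported here. Alternatives were all 9 libraries in 1 fit, RLE size factors, library size alone, 2 other filters on low counts, DESeq2 1.42.0, limma-voom 3.58.1, a test against a fold of 1.5 (glmTreat), and leaving out each library in turn.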

Additional observations from a re-analysis of the deposited data

Results flagged for a closer look

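The genes picked by the naming rule were also compared between MycT58A and EV tumours, which share the implanted genotype apart from MycT58A, in a fit of all 9 libraries. Of 15171 genes tested 1259 passed (8.30%), and 19 of the 201 picked genes tested there were among them, a share near that of all genes. They are given as single genes and say nothing of their gene groups, which were not compared between the tumour groups. The values below are log2 differences, MycT58A minus EV.

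Genes lower in the MycT58A tumours included the immune and macrophage genes Isg15 (-3.83), Cx3cr1 (-2.29) and Cd68 (-1.66), besides the efflux pump Abca1 (-2.61). Pdgfrb (-2.44), Plpp1 (-1.97) and Nid2 (-1.68) were lower, while the endothelial genes Cldn5, Pecam1 and Cdh5 did not pass. The inhibitor genes Cdkn1a (-3.78) and Cdkn1c (-2.26) and the synaptotagmin gene Syt10 (-4.18) were lower too. Syt10 was very low in both tumour groups, at 0.514, 0.255 and 0.170 CPM in EV and 0, 0 and 0.0426 CPM in MycT58A. Its difference therefore rests on few counts, with 1 count in the MycT58A tumours. Cdkn1a measured 107, 132 and 1176 CPM in the EV tumours and 35.4, 37.2 and 30.2 CPM in the MycT58A tumours, so EV replicate 3 alone was very high.

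Pcna (1.41), Psat1 (1.41) and Mthfd2 (1.10) were higher in the MycT58A tumours, while Mcm2, Top2a and Phgdh did not pass. The glutamate transporter Slc1a3 (2.19), the forebrain factor Lhx2 (2.74), the chloride channel gene Clic6 (3.29), the adaptor Irs4 (5.27) and the factor Foxa2 (7.56) were higher as well. Foxa2 measured 0, 0.595 and 0.0567 CPM in the EV tumours and 39.2, 32.2 and 54.3 CPM in the MycT58A tumours. When any MycT58A library was left out, 1 named gene passed, and when an EV library was left out 35, 46 or 56 passed, a check added after the data were seen.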

How the results depend on the processing

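The count of genes called stayed within 1.5 times of 11883 under all 14 alternatives, from 9438 with all 9 libraries in 1 fit to 12538 without the filter beyond 1 count. Without single libraries it ran from 11461 to 11853. Scaling by library size alone moved the median log2 fold change of all genes to -0.11, with 5603 genes higher and 6202 lower. Of 234 named genes that were tested, 224 were called, 191 of them stayed called under every alternative, and none reversed. Calls lost in the fit of all 9 libraries included those of Pik3ca, Otx2, Sox2, Lgr5, Mycn and En2. Reversals were limited to 5 genes that did not pass: H19 (-0.31 to 3.61 without single libraries), Cdh5 (-0.12 to 0.51), Plvap (-0.51 to 0.39), Pdgfrb (-0.092 to 0.18, and -0.016 by library size alone) and Ttr (-3.63 to 3.93, and -0.75 with limma-voom). The cause was not tested. Leaving out 1 library moved the fold of 42 called genes by over 1.5 times, most often control replicate 3 or MycT58A replicate 1. For 22 lists the numbers of members called in each direction stayed within 1.5 times under every alternative, and for 23 they did not, most often in the fit of all 9 libraries and when single libraries were left out. The 19 named genes that differed between the tumour groups became 1 to 56 when a tumour library was left out. No paired analysis was possible because the labels carry no replicate numbers. With 3 samples a group and depths of 21154342 to 30410089 counts, genes below the filter could not be compared.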
